A study of Mus musculus with 11 samples.

Results

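Interferon-stimulated antiviral genes were followed in the small intestine of mice by RNA sequencing of 11 libraries. A list of 37 genes was taken by symbol from a table of 24294 gene symbols. Of these, 34 had a row under the listed symbol, and Ddx58 was matched to the row Rigi through a synonym in the RefSeq gene table, which gave 35 rows. Mx1 and Mx2 were not analysed here. In all, 32 members reached 1 FPKM in at least 3 libraries and entered the test, and Ifit2, Ifit3b and Oas2 lay below that filter. FPKM gives fragment counts with gene length and library depth divided out. The 11 libraries carried the labels HLJDD (n = 4), HFD (n = 4) and ND (n = 3). HLJDD stands in the series title for Huang Lian Jiedu Decoction, a herbal mixture, studied there in obese mice. The labels do not spell out HFD or ND, and do not give the diet of HLJDD mice, the strain, age or sex, the dose, or the stretch of small intestine taken. Nor do they say whether each library came from its own mouse, and p-values speak only of spread between libraries.

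Type I interferons act through the receptor chains Ifnar1 and Ifnar2, and type III interferons, which act mainly on epithelium, through Ifnlr1 and Il10rb. Both lead to a complex that holds Stat2 and Irf9 and binds the interferon-stimulated response element, a repeat of GAAA, in the promoters of many target genes. Their products block viral RNA, slow translation and sense foreign nucleic acid, and in mouse intestine many of them are made at a low steady level in uninfected epithelium.

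Promoters show what the members share in sequence. RefSeq windows (GRCm38.p6) from 250 bases before to 50 bases after the transcript start were found for 27 members, and were searched on both strands for GAAA, any 2 bases and GAAA. The motif stood in 15 of the 27 members (55.6%), in 3.99% of 27025 genes with a window, and in 3.82% of the 8195 genes with a window and a mean of at least 1 FPKM. Each stretch of 40 bases below is shown because it holds the match nearest the start, read 5′ to 3′ in the direction of the gene, with matches on either strand in capitals. The first capitals of Ifit1 are the end of a further match.
Isg15: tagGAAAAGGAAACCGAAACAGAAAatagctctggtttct
Ifit1: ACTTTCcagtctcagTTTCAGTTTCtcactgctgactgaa
Ifit1bl1: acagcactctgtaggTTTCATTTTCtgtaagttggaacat
Ifit3: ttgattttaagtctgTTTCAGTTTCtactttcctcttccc
Oas1a: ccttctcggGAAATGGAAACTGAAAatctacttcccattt
Oas1g: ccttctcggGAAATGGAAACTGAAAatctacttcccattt
Oas3: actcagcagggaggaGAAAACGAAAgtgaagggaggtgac
Ddx60: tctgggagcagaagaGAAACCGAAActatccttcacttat
Bst2: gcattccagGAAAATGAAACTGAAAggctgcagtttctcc

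The Isg15 stretch lies at chr4:156200860-156200899 on the minus strand, and its nearest match starts 66 bases before the transcript start. The Ifit1 stretch is at chr19:34640789-34640828 (plus strand), that of Ifit1bl1 at chr19:34599426-34599465 (minus) and that of Ifit3 at chr19:34583392-34583431 (plus). The same 40 bases as in Ifit3 stand before Ifit3b. On chromosome 5, the stretches are chr5:120907515-120907554 for Oas1a, chr5:120887601-120887640 for Oas1g and chr5:120777710-120777749 for Oas3, all on the minus strand. The Ddx60 stretch is at chr8:61928053-61928092 (plus) and that of Bst2 at chr8:71537572-71537611 (minus). Oas1a and Oas1g hold identical 40-base stretches. A match describes the letters and is no measure of binding.

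Library totals worked out from the FPKM steps ran from 30100481 to 37940645 reads. The share of mitochondrial reads was 40.7% in HLJDD replicate 2 and 32.4% in HFD replicate 1, and 10.4% to 19.3% in the other 9 libraries. The stretch of gut differed by its markers. The 9 listed genes of distal small intestine summed to 331 FPKM in HLJDD libraries (256 to 441), 359 FPKM in HFD libraries (304 to 453) and 7087 FPKM in ND libraries (1320 to 11699). The 11 listed proximal genes summed to 37214, 41760 and 5485 FPKM in HLJDD, HFD and ND libraries, with group ranges of 29466 to 50086, 35612 to 47612 and 1696 to 9949 FPKM. Sums rest most on the abundant genes, and the proximal genes did not all move together. In the limma test described below, 5 of 9 tested proximal genes were higher and 1 was lower than in ND. This held in HFD and in HLJDD, and 3 were not called. Of 8 tested distal genes 6 were lower in HFD and 7 in HLJDD, and 0 were higher. Group and summed marker level move together, so group and stretch of gut cannot be told apart in any comparison with ND. In whole tissue, fewer cells of a type and less RNA per cell cannot be told apart either. The 10 listed epithelial genes were detected in all libraries and summed to 8932, 8802 and 9547 FPKM in HLJDD, HFD and ND libraries.

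Most of the 32 tested members stood lower in HFD and in HLJDD intestine than in ND intestine. With limma on log2(FPKM + 1), adjusted by Benjamini-Hochberg over 10764 genes at a threshold of 0.05, HFD against ND gave 27 lower members of 32, where 11.5% of all genes tested were called lower. A single member, Ifi27l2b, was higher, where 5.06% of all genes were. The other 4 were Oasl1, Trim25, Irf9 and Ifi35. HLJDD against ND gave 27 lower and 0 higher members of 32, where 7.79% of all genes were called lower and 4.1% higher. These comparisons share the ND libraries and are not independent of each other.

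The median difference over the 32 members was -1.29 in HFD against ND and -1.28 in HLJDD against ND on the log2 scale, and over all genes tested it was -0.20 and -0.13. On FPKM as deposited, every HFD library lay below every ND library for 28 of the 32 members, where 32.9% of all genes did so. Every HLJDD library lay below every ND library for 28 of the 32, where 21.3% of all genes did. Over all 35 rows, with no filter, the groups were apart in this way for 31 members in each comparison, where 18.4% of all 24294 genes were so in HFD and 13.4% in HLJDD. Rsad2 and Ifi44 passed the filter only through ND libraries and had to differ. Without them, 25 of 30 members were lower in each comparison. After median-ratio scaling, which moved the median of all genes in HFD against ND to 0.00, 23 members were lower and 1 was higher in HFD. In HLJDD against ND 25 were lower and 0 higher. The shares of all genes called under this scaling are not given here. Median differences of the members were then -1.06 in HFD and -1.13 in HLJDD, beside 0.00 and 0.02 for all genes. On the scaled values Trim25 and Stat2, apart from ND on FPKM as deposited, overlapped with ND in both comparisons.

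**Figure D1:**
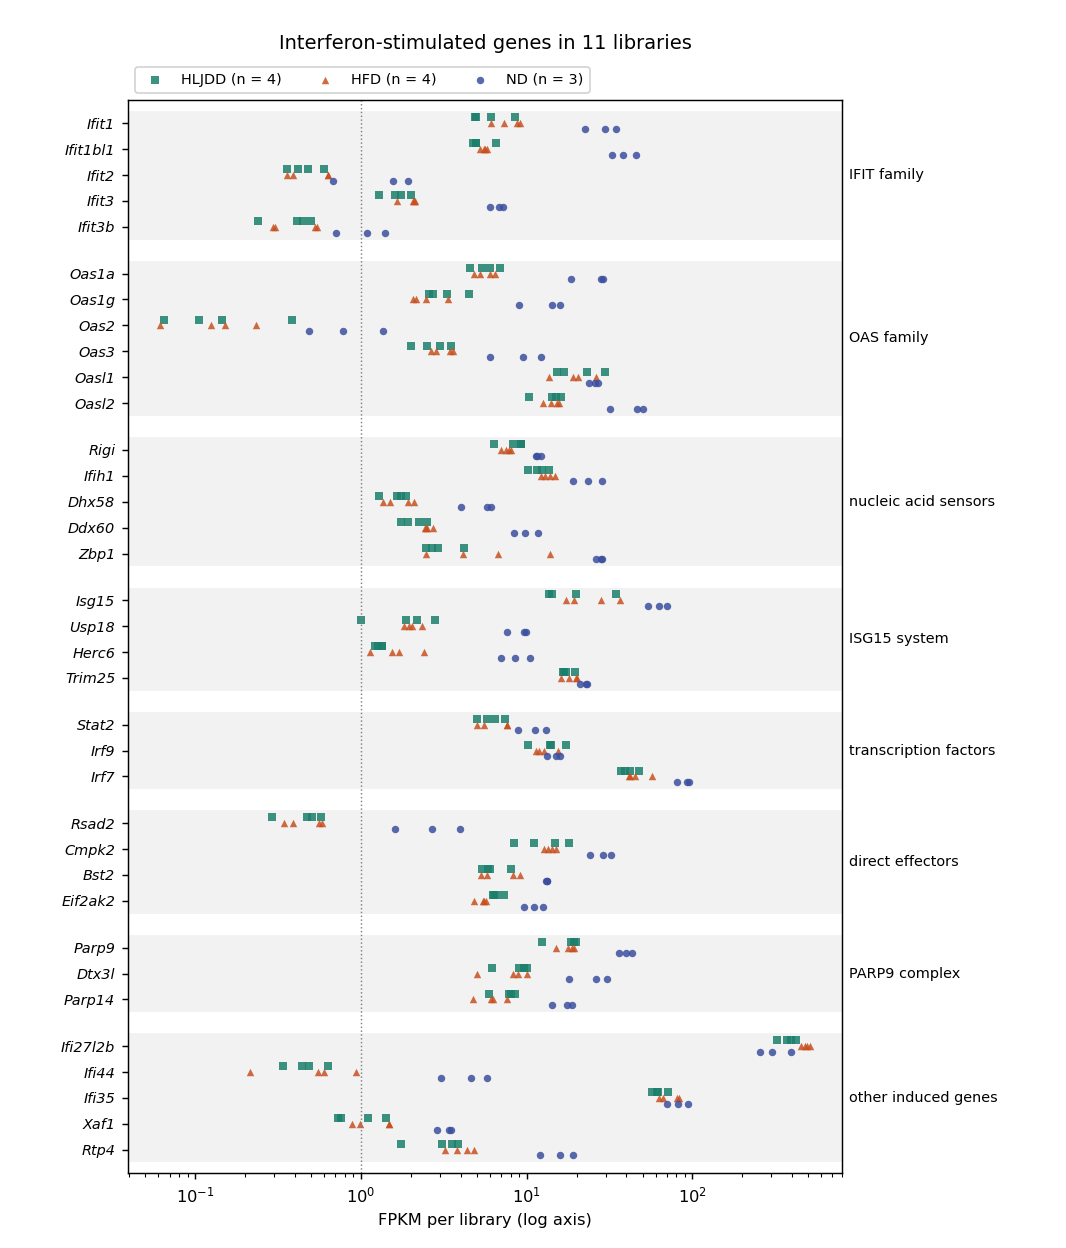
FPKM of the 35 members in every library on a log axis, grouped by role, with HLJDD as squares, HFD as triangles and ND as circles; the dotted line marks the filter level of 1 FPKM. For most members the ND circles stand to the right of the squares and triangles, which overlap each other, while Oasl1, Irf9, Ifi35 and Ifi27l2b show no such gap.

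The IFIT proteins bind viral RNA through tetratricopeptide repeats. All 3 tested IFIT genes fell in HFD and in HLJDD intestine, and Ifit1bl1, an Ifit1-like gene, had the largest fall of any member in HFD on the log2(FPKM + 1) scale. By the ratio of means Ifi44 had the larger one, with the ND mean 7.8 times the HFD mean against 7.02 times for Ifit1bl1. Ifi44, however, passed the filter only through ND libraries, had to differ, and rested on 23 to 91 reads in HFD libraries. Ifit1bl1 had 4.91, 4.97, 4.72 and 6.53 FPKM in HLJDD libraries, 5.20, 5.64, 5.76 and 5.50 FPKM in HFD libraries, and 45.6, 38.1 and 32.6 FPKM in ND libraries. No HLJDD or HFD library came near an ND library. The log2 difference was -2.59 in HFD against ND (SE 0.14, adjusted p = 2.12e-06) and -2.66 in HLJDD against ND (SE 0.14, adjusted p = 3.2e-06).

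Ifit1, which binds RNA whose cap lacks methyl groups, had 4.93, 8.54, 4.86 and 6.09 FPKM in HLJDD libraries, 9.11, 8.71, 7.33 and 6.07 FPKM in HFD libraries, and 34.4, 29.8 and 22.4 FPKM in ND libraries. The lowest ND library stood well above the highest of the others. Ifit1 fell by 1.75 on the log2 scale in HFD (SE 0.21, adjusted p = 0.000435) and by 2.08 in HLJDD (SE 0.21, adjusted p = 0.000162), each against ND. Ifit3, a partner of Ifit1, had 1.99, 1.75, 1.29 and 1.60 FPKM in HLJDD libraries, 2.10, 2.11, 2.05 and 1.66 FPKM in HFD libraries, and 6.80, 7.22 and 6.01 FPKM in ND libraries. Its log2 difference was -1.36 in HFD (adjusted p = 0.000109) and -1.53 in HLJDD (adjusted p = 4.56e-05) against ND, again with no overlap.

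Below the filter, Ifit2 averaged 0.464 ± 0.102 FPKM in HLJDD, 0.503 ± 0.150 in HFD and 1.38 ± 0.637 in ND libraries (SD, n = 4, 4 and 3). Ifit3b averaged 0.398 ± 0.112, 0.418 ± 0.138 and 1.06 ± 0.338 FPKM in HLJDD, HFD and ND libraries. The 5 IFIT genes lie in 1 cluster on chromosome 19, from Ifit2 at 34550550 to the end of Ifit1bl1 at 34662981 (GRCm38.p6), and the span of Ifit1bl1 takes in Ifit3b and Ifit1. Ifit3 and Ifit3b, and Ifit1 and Ifit1bl1, are close copies, so counting may not have kept their reads apart.

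The OAS enzymes make oligoadenylates from ATP when they meet double-stranded RNA as part of the defence against RNA viruses. Of 5 tested OAS genes 4 fell in both comparisons with ND, and Oasl1 did not pass. Oas1a had 6.01, 5.37, 4.53 and 6.89 FPKM in HLJDD libraries, 5.24, 4.81, 5.97 and 6.45 FPKM in HFD libraries, and 28.9, 28 and 18.4 FPKM in ND libraries. Oas1g had 2.73, 4.47, 2.56 and 3.29 FPKM in HLJDD libraries, 2.46, 3.35, 2.07 and 2.16 FPKM in HFD libraries, and 15.8, 14.3 and 8.95 FPKM in ND libraries. In both, ND replicate 3 was the lowest ND library and still lay above all 8 others. The log2 difference of Oas1a was -1.96 in HFD (SE 0.18, adjusted p = 8.61e-05) and -1.95 in HLJDD (SE 0.18, adjusted p = 9.41e-05), each against ND. For Oas1g it was -1.98 in HFD (SE 0.21, adjusted p = 0.000221) and -1.70 in HLJDD (SE 0.21, adjusted p = 0.000601). Oas1a and Oas1g are near-identical copies with the same promoter stretch, and their reads may not have been told apart.

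Oasl2, an OAS-like gene of the mouse, had 15.1, 14.2, 10.3 and 16.1 FPKM in HLJDD libraries, 15.2, 15.7, 14.1 and 12.5 FPKM in HFD libraries, and 50.2, 46.4 and 31.8 FPKM in ND libraries. The groups did not overlap with ND, and the log2 differences were -1.49 in HFD (adjusted p = 0.000526) and -1.55 in HLJDD (adjusted p = 0.000536). Oas3 averaged 2.74 ± 0.639, 3.13 ± 0.472 and 9.25 ± 3.11 FPKM in HLJDD, HFD and ND libraries, with log2 differences from ND of -1.42 in HLJDD and -1.27 in HFD (adjusted p = 0.00149 and 0.00229). Oas2 lay below the filter at 0.175, 0.143 and 0.874 FPKM. Oasl1, which in the mouse lacks synthetase activity and restrains translation of Irf7, averaged 21.2 ± 6.57 FPKM in HLJDD, 19.8 ± 5.20 in HFD and 25.5 ± 1.59 in ND libraries. Its groups overlapped, and its log2 difference from ND was -0.30 in HLJDD (adjusted p = 0.426) and -0.38 in HFD (adjusted p = 0.248).

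All 5 nucleic acid sensors fell in HFD and in HLJDD intestine against ND. Zbp1, which binds Z-form nucleic acid and can start necroptosis, had 2.48, 4.21, 2.93 and 2.69 FPKM in HLJDD libraries, 4.11, 13.9, 6.75 and 2.48 FPKM in HFD libraries, and 27.9, 28.4 and 26.3 FPKM in ND libraries. HFD replicate 2 stood far above the other HFD libraries and still below ND. The log2 difference from ND was -2.82 in HLJDD (SE 0.37, adjusted p = 0.000829) and -2.08 in HFD (SE 0.37, adjusted p = 0.00345), and without HFD replicate 2 the HFD value was -2.46.

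Ddx60, a helicase tied to sensing by RIG-I, had 2.24, 1.91, 1.75 and 2.49 FPKM in HLJDD libraries, 2.47, 2.73, 2.49 and 2.44 FPKM in HFD libraries, and 11.7, 9.73 and 8.41 FPKM in ND libraries. Dhx58, which encodes the RIG-I-like receptor LGP2, had 1.65, 1.29, 1.74 and 1.86 FPKM in HLJDD libraries, 1.91, 1.35, 2.08 and 1.49 FPKM in HFD libraries, and 6.12, 5.78 and 4.04 FPKM in ND libraries. HLJDD and HFD libraries mixed in both genes, apart from ND. Ddx60 differed from ND by -1.82 in HLJDD and -1.62 in HFD (adjusted p = 1.91e-05 and 4.85e-05), and Dhx58 by -1.25 and -1.21 (adjusted p = 0.000649 and 0.000614). The smallest falls were in the RNA receptors themselves. Ifih1, which encodes MDA5, averaged 11.9 ± 1.43, 13.5 ± 1.14 and 23.7 ± 4.71 FPKM in HLJDD, HFD and ND libraries, and differed from ND by -0.92 and -0.76 in HLJDD and HFD. Rigi, which encodes RIG-I, averaged 8.28 ± 1.36, 7.59 ± 0.468 and 11.7 ± 0.397 FPKM and differed from ND by -0.47 and -0.57 (adjusted p = 0.0441 and 0.0159). Its call in HLJDD was lost in 14 of 22 alternatives, and in HFD without ND replicate 1 or 2 (adjusted p = 0.061 and 0.0819).

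ISG15 is a ubiquitin-like protein that is joined to new proteins during an interferon response. In this group 3 of 4 members fell. Isg15 had 14.2, 34.6, 13.6 and 19.8 FPKM in HLJDD libraries, 36.7, 27.9, 19.4 and 17.3 FPKM in HFD libraries, and 70.4, 63.0 and 53.6 FPKM in ND libraries. The highest library in HLJDD and in HFD was the one with the high mitochondrial share. Its part in the level was not tested. The log2 difference from ND was -1.64 in HLJDD (SE 0.31, adjusted p = 0.00606) and -1.32 in HFD (SE 0.31, adjusted p = 0.0157), and the HFD call was lost after median-ratio scaling (adjusted p = 0.0916) and without ND replicate 1 (0.0799) or 2 (0.0669).

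Usp18, the protease that removes ISG15 and also restrains the type I receptor, had 1.87, 2.19, 0.997 and 2.80 FPKM in HLJDD libraries, 2.32, 2.02, 1.96 and 1.83 FPKM in HFD libraries, and 9.63, 9.94 and 7.60 FPKM in ND libraries. Herc6, the main ligase for ISG15 in the mouse, had 1.33, 1.26, 1.21 and 1.34 FPKM in HLJDD libraries, 1.69, 2.39, 1.53 and 1.14 FPKM in HFD libraries, and 10.5, 8.55 and 7.04 FPKM in ND libraries. In neither gene did an ND library overlap with the rest. Usp18 differed from ND by -1.79 in HLJDD and -1.72 in HFD (adjusted p = 0.000286 and 0.000298), and Herc6 by -2.07 and -1.86 (adjusted p = 3.12e-05 and 7.6e-05). Herc6 shares 1269 exon bases (13.7%) with Gm45193 on the same strand (GENCODE M21), so reads there may not have been told apart. Trim25, a ubiquitin ligase for RIG-I, averaged 17.6 ± 1.38, 18.5 ± 1.85 and 22.3 ± 1.15 FPKM in HLJDD, HFD and ND libraries. On FPKM as deposited all its HLJDD and HFD libraries lay below ND, and the differences of -0.33 and -0.26 did not pass (adjusted p = 0.103 and 0.147). The HFD difference passed in 1 of 22 alternatives (adjusted p = 0.0499). After median-ratio scaling both groups overlapped with ND. HFD replicate 1 (26.3) and HLJDD replicate 2 (21.3) then stood above the ND libraries (19.4, 19.8 and 20).

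Among the factors that drive the program, Irf7 and Stat2 fell and Irf9 did not pass. Irf7, which controls induction of interferon genes, had 39.4, 47.3, 36.9 and 42.1 FPKM in HLJDD libraries, 57.0, 44.8, 41.4 and 42.1 FPKM in HFD libraries, and 93.0, 94.8 and 80.7 FPKM in ND libraries. The log2 difference from ND was -1.10 in HLJDD (SE 0.15, adjusted p = 0.00104) and -0.94 in HFD (SE 0.15, adjusted p = 0.00181), with no overlap. Stat2 had 5.74, 7.36, 5.02 and 6.47 FPKM in HLJDD libraries, 7.61, 7.62, 5.49 and 4.99 FPKM in HFD libraries, and 13.1, 11.3 and 8.84 FPKM in ND libraries. ND replicate 3 stood close to the highest HFD libraries. Its falls of -0.75 in HLJDD and -0.70 in HFD (adjusted p = 0.0207 and 0.023) did not pass after median-ratio scaling (adjusted p = 0.127 and 0.181). The Stat2 call was lost in 6 of 22 alternatives in HLJDD and in 8 of 22 in HFD. Among these were quantile normalization (0.101 and 0.159) and limma-voom (0.0919 and 0.151). The Irf7 call in HFD was lost after median-ratio scaling (0.0613) and with limma-voom (0.0579). Irf9 had 13.9, 14.1, 10.2 and 17.2 FPKM in HLJDD libraries, 15.4, 11.4, 11.9 and 12.8 FPKM in HFD libraries, and 15, 15.8 and 13.2 FPKM in ND libraries. Its 3 groups overlapped, at log2 differences from ND of -0.10 in HLJDD and -0.18 in HFD (adjusted p = 0.736 and 0.432), and of 0.08 and 0.06 after median-ratio scaling.

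The 4 tested direct effectors all fell, of which Rsad2 passed the filter only through ND. Rsad2 (viperin, which makes a chain-terminating nucleotide) and Cmpk2 (a nucleotide kinase) are neighbours on chromosome 12, at 26442743 to 26456452 and 26469117 to 26479837. Rsad2 had 0.506, 0.570, 0.292 and 0.472 FPKM in HLJDD libraries, 0.581, 0.391, 0.343 and 0.560 FPKM in HFD libraries, and 3.94, 2.68 and 1.61 FPKM in ND libraries. Cmpk2 had 14.8, 8.33, 18 and 11 FPKM in HLJDD libraries, 13.4, 15.1, 14.2 and 12.7 FPKM in HFD libraries, and 32.3, 29.0 and 24.2 FPKM in ND libraries. Both were apart from ND, and Cmpk2 stood at a much higher level per length than Rsad2 in every library. Cmpk2 differed from ND by -1.11 in HLJDD and -0.98 in HFD (adjusted p = 0.00603 and 0.00946, the second 0.0609 without ND replicate 1), and Rsad2 by -1.31 in both (adjusted p = 0.00132 and 0.00108). Rsad2 rested on 42 to 79 reads in HLJDD and HFD libraries and on 226 to 526 in ND libraries.

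Eif2ak2, which encodes the kinase PKR that halts translation on double-stranded RNA, had 6.51, 6.29, 7.28 and 6.32 FPKM in HLJDD libraries, 4.79, 5.50, 5.47 and 5.67 FPKM in HFD libraries, and 12.5, 11.1 and 9.62 FPKM in ND libraries. On FPKM as deposited the 3 groups stood in 3 separate ranges, with HFD lowest, and after median-ratio scaling HLJDD and HFD overlapped. The log2 difference from ND was -0.66 in HLJDD (adjusted p = 0.0051) and -0.92 in HFD (adjusted p = 0.000746). Bst2, or tetherin, which holds budding virus at the cell surface, averaged 6.31 ± 1.19, 7.14 ± 1.87 and 13.2 ± 0.109 FPKM in HLJDD, HFD and ND libraries, with differences from ND of -0.97 and -0.83 (adjusted p = 0.00572 and 0.0106). The HFD call of Bst2 was lost after median-ratio scaling (0.0547) and without ND replicate 2 (0.0514).

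Parp9, Dtx3l and Parp14 act in ADP-ribosylation, and Parp9 and Dtx3l form a complex. All 3 fell. Dtx3l, a ubiquitin ligase, had 9.58, 6.14, 10 and 8.95 FPKM in HLJDD libraries, 5.01, 10.1, 8.82 and 8.23 FPKM in HFD libraries, and 30.6, 26.1 and 18.1 FPKM in ND libraries. Parp14 had 7.79, 5.92, 8.45 and 8.06 FPKM in HLJDD libraries, 4.76, 7.56, 6.25 and 6.05 FPKM in HFD libraries, and 18.8, 17.5 and 14.2 FPKM in ND libraries. In both genes, on FPKM as deposited, the lowest library of HLJDD and of HFD was the one with the high mitochondrial share, the reverse of Isg15. After median-ratio scaling this held for Dtx3l and not for Parp14. Parp9 had 18.4, 12.3, 19.8 and 19.2 FPKM in HLJDD libraries, 15, 19.4, 17.7 and 18.7 FPKM in HFD libraries, and 43.4, 39.9 and 36.1 FPKM in ND libraries. Their log2 differences from ND ran from -1.41 to -1.06 in HLJDD and from -1.52 to -1.13 in HFD, and none of the groups overlapped with ND. Parp9 and Dtx3l share 458 exon bases on opposite strands (9.4% of Parp9 and 8% of Dtx3l, GENCODE M21). The strand setting of the counting is not given in the sources used here, so reads there may not have been told apart.

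Of the 5 remaining members 3 fell in both comparisons with ND, of which Ifi44 passed the filter only through ND. Ifi44 had 0.438, 0.632, 0.483 and 0.337 FPKM in HLJDD libraries, 0.554, 0.932, 0.595 and 0.213 FPKM in HFD libraries, and 5.78, 4.62 and 3.02 FPKM in ND libraries. Rtp4, a chaperone of membrane receptors, had 3.09, 3.56, 1.75 and 3.84 FPKM in HLJDD libraries, 4.35, 4.78, 3.78 and 3.22 FPKM in HFD libraries, and 19.0, 15.9 and 12 FPKM in ND libraries. Xaf1, named for binding the apoptosis inhibitor XIAP, had 0.724, 1.42, 0.759 and 1.11 FPKM in HLJDD libraries, 1.48, 1.47, 0.988 and 0.878 FPKM in HFD libraries, and 3.47, 3.41 and 2.86 FPKM in ND libraries. In all 3 the ND libraries were apart from the rest. The log2 differences from ND were -1.87 and -1.79 for Ifi44, -2.05 and -1.71 for Rtp4, and -1.10 and -0.95 for Xaf1, in HLJDD and HFD. Rtp4 shares 296 exon bases (13.9%) with Gm45338 on the same strand (GENCODE M21), so reads there may not have been told apart.

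Ifi27l2b went the other way. This member of the Ifi27 family of small hydrophobic proteins was the most abundant member per length, with 372, 324, 420 and 395 FPKM in HLJDD libraries, 476, 510, 451 and 489 FPKM in HFD libraries, and 254, 304 and 395 FPKM in ND libraries. All HFD libraries lay above all others of HLJDD and ND, while HLJDD and ND overlapped. It was higher in HFD than in ND by 0.62 (SE 0.17, adjusted p = 0.0266), a call lost without ND replicate 1 (0.133), ND replicate 2 (0.112) or HFD replicate 2 (0.0507), with scaling to equal sums (0.123) and with the replicate number as a block (0.0627). HLJDD differed from ND by 0.27 (adjusted p = 0.314). Ifi35, which pairs with Nmi, averaged 62.7 ± 6.33, 73.2 ± 10.4 and 82 ± 12 FPKM in HLJDD, HFD and ND libraries. Its groups overlapped and its differences from ND of -0.38 and -0.16 did not pass (adjusted p = 0.136 and 0.448). An antisense gene shares 290 of its exon bases (16.8%).

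Promoter matches were set beside these differences as a description. Of the 14 tested members whose window holds the motif, 14 were called lower in HFD than in ND, Rsad2 among them. Among all 326 tested genes with the motif 17.2% were called lower, and among 8254 with no match 11.1%. Of the 11 tested members whose window holds no match, 7 were lower, Ifi44 among them. The 4 that were not called were Oasl1, Trim25, Irf9 and Ifi35. Rsad2 and Ifi44 passed the filter only through ND libraries and had to differ. The other 7 tested members had no window, and 6 of them were lower and 1 higher. The median difference was -1.32 with a match, -0.95 with none and -1.32 with no window. Isg15 and Ifit1, with matches 66 and 85 bases before the start, fell, and so did Irf7, Herc6 and Oasl2, whose windows hold none.

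No member passed the test between HLJDD and HFD intestine, a comparison that shares the HFD libraries with that of HFD against ND. In HLJDD against HFD limma called 0 of 32 members, and among all 10764 genes it called 0% lower and 0% higher (lowest adjusted p = 0.999). At an unadjusted p under 0.05 there were 2 members and 186 genes, and limma-voom on the recovered reads called 0 members. The log2 differences of the members ran from -0.74 to 0.27 with a median of -0.08, where the median of all genes was 0.06, and HLJDD and HFD libraries overlapped for 30 of 32. For 31 of the 32 members the 95% interval of the difference lay within 1 of 0 on the log2 scale, and the bounds over all members ran from -1.48 to 0.70.

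The members with the smallest unadjusted p were Ifi27l2b, Eif2ak2, Zbp1 and Ifit1. Ifi27l2b averaged 378 ± 40.7 FPKM in HLJDD and 482 ± 24.6 FPKM in HFD libraries, a difference of -0.35 (95% interval -0.69 to -0.02). Eif2ak2 averaged 6.60 ± 0.462 FPKM in HLJDD and 5.36 ± 0.391 FPKM in HFD libraries, a difference of 0.26 (0.01 to 0.50). These were the 2 members of 32 whose HLJDD and HFD libraries did not overlap, in opposite directions, where 1.03% of all genes did not overlap. After median-ratio scaling Eif2ak2 overlapped as well. Zbp1 averaged 3.08 ± 0.776 FPKM in HLJDD and 6.81 ± 5.04 FPKM in HFD libraries, and its difference of -0.74 (-1.48 to 0.00) became -0.36 without HFD replicate 2. Ifit1 averaged 6.10 ± 1.72 FPKM in HLJDD and 7.81 ± 1.38 FPKM in HFD libraries, a difference of -0.33 (-0.74 to 0.09). The adjusted p was 0.999 for all 4.

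**Figure D2:**
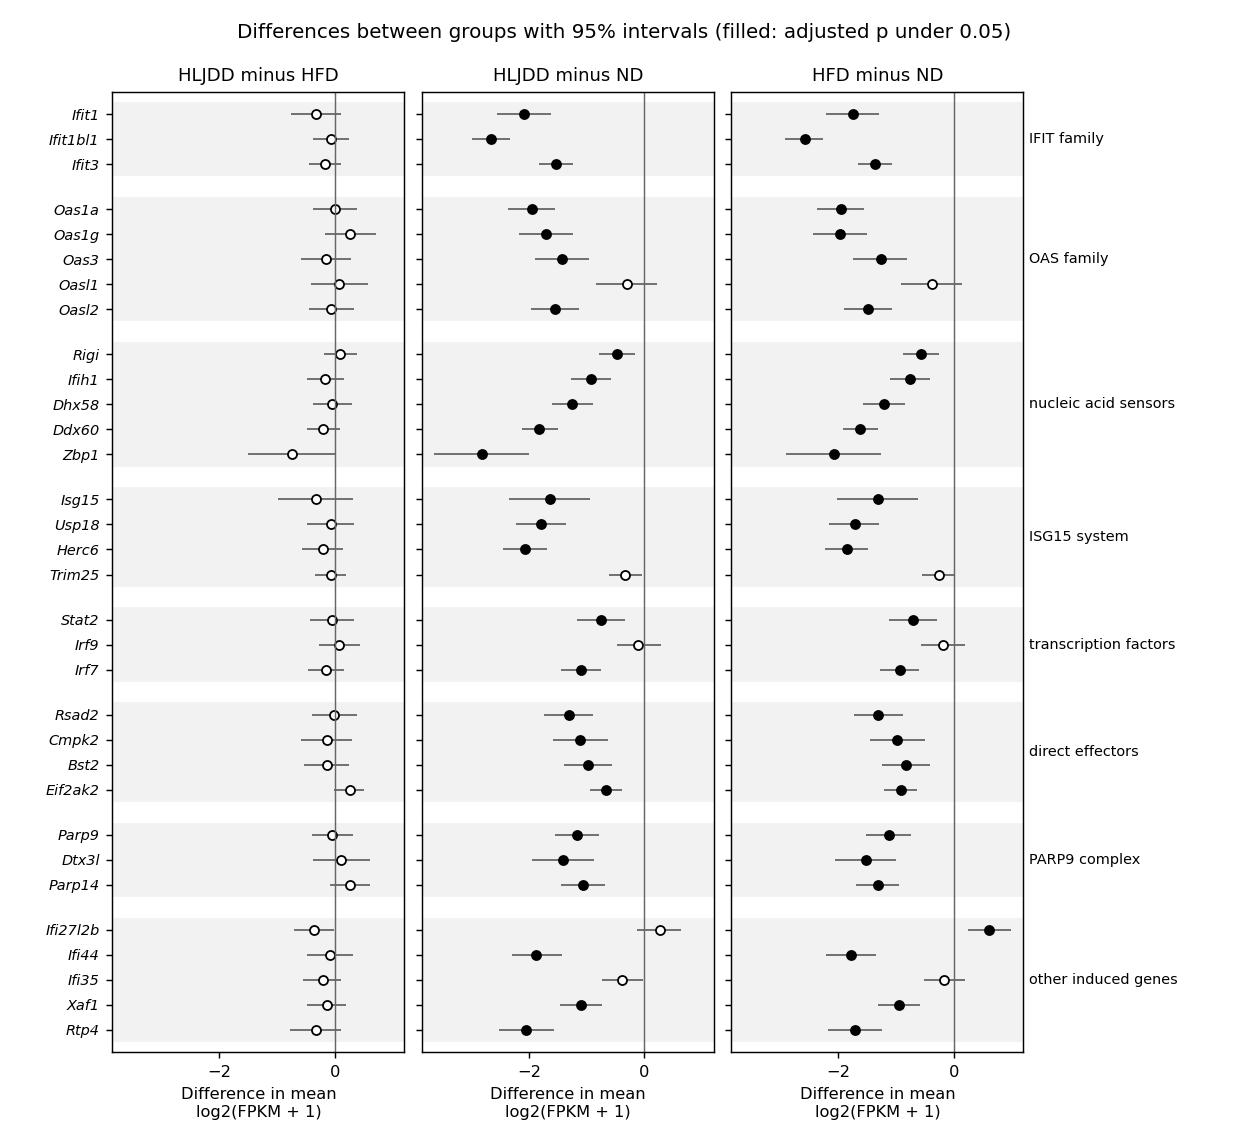
Differences between group means of log2(FPKM + 1) for the 32 tested members, for HLJDD minus HFD, HLJDD minus ND and HFD minus ND, with 95% intervals as bars and filled points where the adjusted p is under 0.05. No point is filled in the first panel, where values run from -0.74 to 0.27, and 27 members are filled to the left of 0 in each of the other panels, with Ifi27l2b filled to the right in HFD minus ND.

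Upstream of the members, 3 of 20 listed interferon ligands had a row. Ifna2, Ifnk and Ifng summed to at most 0.0321 FPKM in HLJDD, 0.07 FPKM in HFD and 0.0667 FPKM in ND libraries, and the other 17, Ifnb1, Ifnl2 and Ifnl3 among them, were not analysed here. Of 10 tested receptor and JAK-STAT genes 3 were higher and 1 lower in HFD than in ND, and 1 was higher and 1 lower in HLJDD than in ND. Among all genes tested 5.06% were higher and 11.5% lower in HFD, and 4.1% were higher and 7.79% lower in HLJDD. Ifnar2, the ligand-binding chain of the type I receptor, had 3.81, 2.81, 3.29 and 4.26 FPKM in HLJDD libraries, 4.95, 4.57, 4.01 and 4.76 FPKM in HFD libraries, and 1.26, 1.68 and 2.06 FPKM in ND libraries. Every HLJDD and HFD library lay above every ND library. The log2 difference from ND was 0.77 in HLJDD (SE 0.15, adjusted p = 0.00646) and 1.07 in HFD (SE 0.15, adjusted p = 0.000933). Ifnar1, the other chain, averaged 5.28 ± 1.24, 5.63 ± 0.649 and 5.55 ± 0.361 FPKM in HLJDD, HFD and ND libraries, with overlapping groups and differences from ND of -0.08 and 0.01 (adjusted p = 0.769 and 0.962).

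Both chains of the type III receptor stood above ND in each HLJDD and HFD library. Il10rb had 54.6, 45, 57.1 and 54.5 FPKM in HLJDD libraries, 64.1, 68.3, 63.7 and 67.3 FPKM in HFD libraries, and 32.2, 38.7 and 44.1 FPKM in ND libraries. It rose by 0.78 in HFD (adjusted p = 0.0036), and the HLJDD difference of 0.46 did not pass (adjusted p = 0.0519). That HLJDD difference did pass in 8 of 22 alternatives (lowest adjusted p = 0.00667). Il10rb also serves the receptors of interleukins. Ifnlr1 averaged 5.31 ± 0.756, 6.01 ± 0.660 and 4.04 ± 0.318 FPKM in HLJDD, HFD and ND libraries. It rose by 0.47 in HFD (adjusted p = 0.0317) and differed by 0.32 in HLJDD (adjusted p = 0.139). Its HLJDD difference passed in 3 of 22 alternatives (lowest adjusted p = 0.0451). The HFD call was lost in 7 of 22 alternatives. These were without ND replicate 1, 2 or 3 (adjusted p = 0.107, 0.0883 and 0.0928) or HFD replicate 3 or 4 (0.0725 and 0.0713), scaling to equal sums (0.166) and the replicate block (0.0985).

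Irf1, a transcription factor induced by interferons, averaged 35.7 ± 5.46, 42.2 ± 9.25 and 47.1 ± 3.09 FPKM in HLJDD, HFD and ND libraries, and its differences from ND of -0.40 and -0.18 did not pass (adjusted p = 0.155 and 0.461). All its HLJDD libraries lay below the ND libraries, and HFD and ND overlapped. After median-ratio scaling its HFD difference was 0.08.

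**Figure D3:**
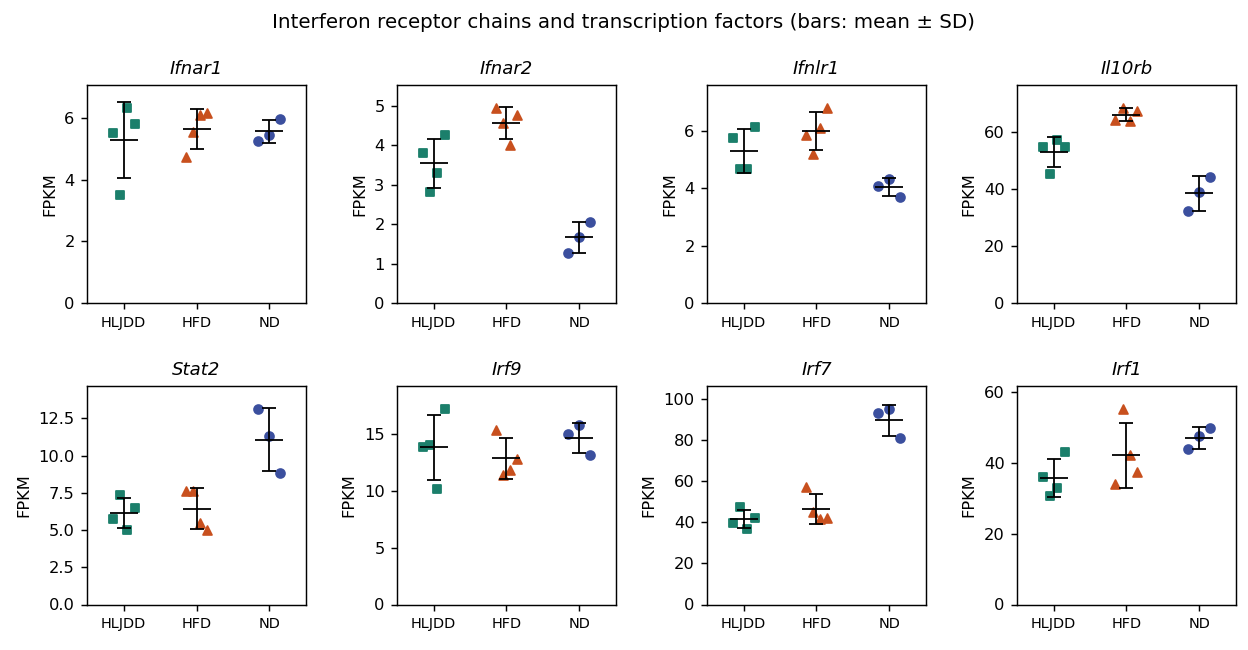
FPKM per library of 4 interferon receptor chains in the upper row and 4 transcription factors in the lower row, with HLJDD, HFD and ND from left to right and the mean ± SD as black bars. Ifnar2, Ifnlr1 and Il10rb stand above ND in all HLJDD and HFD libraries, Ifnar1 and Irf9 overlap, and Stat2 and Irf7 stand below ND in all of them, while Irf1 stands below ND in the HLJDD libraries and overlaps with it in HFD.

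Among 14 tested sensing and induction genes outside the list, 4 were lower in HFD and 3 in HLJDD than in ND, and 0 were higher. Of all genes tested 11.5% and 7.79% were lower. The list's median difference was -0.26 in HFD and -0.14 in HLJDD, near the -0.20 and -0.13 of all genes. After median-ratio scaling 3 genes were lower and 1 was higher in each comparison. Ikbke, a kinase that activates interferon regulatory factors, averaged 5.36 ± 0.904, 4.36 ± 0.933 and 9.18 ± 0.642 FPKM in HLJDD, HFD and ND libraries, with differences from ND of -0.69 and -0.94 (adjusted p = 0.0185 and 0.00299). Its HLJDD call was lost in 5 of 22 alternatives, among them without ND replicate 1, 2 or 3 (0.0576, 0.0876 and 0.0579) and with the replicate block (0.0506). Tlr3, the endosomal receptor of double-stranded RNA, averaged 3.62 ± 0.605, 3.71 ± 0.790 and 8.01 ± 1.80 FPKM, with differences of -0.96 and -0.93 (adjusted p = 0.00657 and 0.00623). Traf6, an adaptor of Toll-like receptors, fell in HFD by 0.64 (adjusted p = 0.0152). That call was lost without ND replicate 1 or 2 (0.0735 and 0.0794) and with the replicate block (0.0538). The HLJDD difference of Traf6, -0.47, did not pass (adjusted p = 0.0649), though it passed in 6 of 21 alternatives (lowest 0.00639).

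Of 9 tested negative regulators, 5 fell in HFD and 3 in HLJDD against ND, and none rose. Among all genes tested 11.5% and 7.79% were called lower. Socs1, which blocks Janus kinases, had 0.463, 0.521, 0.983 and 0.526 FPKM in HLJDD libraries, 1.76, 1.33, 1.37 and 0.881 FPKM in HFD libraries, and 3.03, 3.36 and 3.64 FPKM in ND libraries. It stood lowest in HLJDD, with 1 HLJDD library inside the HFD range, and differed from ND by -1.43 in HLJDD (adjusted p = 0.00032) and -0.91 in HFD (adjusted p = 0.00287). Between HLJDD and HFD the difference of -0.52 (95% interval -0.83 to -0.21) did not pass over all genes (adjusted p = 0.999). Socs3, which restrains signals through Stat3, averaged 10.9 ± 4.92, 12.8 ± 3.82 and 39.5 ± 8.13 FPKM in HLJDD, HFD and ND libraries and fell in both (adjusted p = 0.00336 and 0.0063). Tnfaip3, which encodes the NF-kappa-B inhibitor A20, fell by 1.00 in HFD (adjusted p = 0.00878, and 0.0506 without ND replicate 2). The HLJDD difference of Tnfaip3, -0.65, did not pass (adjusted p = 0.0689), though it passed in 4 of 22 alternatives (lowest 0.0281).

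A wider list of 40 tested interferon-stimulated genes outside the members held 17 lower and 0 higher in HLJDD, and 18 lower and 0 higher in HFD, each against ND. Among all genes tested 7.79% were lower in HLJDD and 11.5% in HFD. The median difference of the list was -0.53 in HLJDD and -0.58 in HFD, and that of all genes was -0.13 and -0.20. The counts depended on the ND libraries: without ND replicate 1 or 2 they were 9 and 8 in HLJDD, and 11 and 10 in HFD. Rnf213, a large ubiquitin ligase, averaged 2.58 ± 0.286, 2.28 ± 0.611 and 10.3 ± 2.02 FPKM in HLJDD, HFD and ND libraries, with differences from ND of -1.64 and -1.79 (adjusted p = 0.000223 and 0.000116). Lgals9, which encodes galectin-9, averaged 119 ± 17.7, 119 ± 14.8 and 271 ± 12.7 FPKM in HLJDD, HFD and ND libraries (adjusted p = 0.000853 and 0.000707 against ND). Of 12 tested genes induced mainly by interferon-gamma, 6 were lower in HLJDD and 3 in HFD than in ND. Cxcl10, which encodes a chemokine, averaged 0.908 ± 0.442, 1.24 ± 0.694 and 3.68 ± 1.04 FPKM in HLJDD, HFD and ND libraries (adjusted p = 0.00606 and 0.0127 against ND, the second 0.064 without ND replicate 2). The GTPase gene Irgm2 differed from ND by -2.07 in HLJDD and -1.47 in HFD (adjusted p = 0.00367 and 0.0171, the second 0.0946 and 0.0784 without ND replicate 1 or 2), and Irgm1 by -1.58 and -1.22 (adjusted p = 0.0202 and 0.0461), where the HFD call was lost in 16 of 22 alternatives. HLJDD against HFD called 0 genes in each of these lists.

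The ND libraries differed among themselves along with a marker of the distal gut. Fabp6, which carries bile acids in ileal epithelium, had 1.16, 0.586, 2.27 and 0.212 FPKM in HLJDD libraries, 4.31, 3.54, 2.32 and 1.26 FPKM in HFD libraries, and 9821, 6702 and 397 FPKM in ND libraries. Gata4, a factor of the proximal small intestine, had 34.9, 26.4, 32.0 and 36.6 FPKM in HLJDD libraries, 25.9, 26.9, 33.4 and 35.7 FPKM in HFD libraries, and 9.75, 15.5 and 24.7 FPKM in ND libraries. ND replicate 3 was thus the ND library nearest the others by both markers. Of the 27 members lower in HFD, 26 had their lowest ND value in ND replicate 3 (51.1% of all genes tested did), and 21 had the order of Fabp6 within ND (35.4% of all genes). These shares cover all genes tested and were not taken over the genes called lower. Of all 32 tested members, ND replicate 3 was the lowest ND library for 29 on FPKM as deposited and for 24 after median-ratio scaling. In ND replicate 3 all 27 lower members were still above all 8 HLJDD and HFD libraries, as were 90.6% of all 1241 genes called lower in HFD. These members stood there at 1.37 to 5.89 times the HFD mean, with a median of 2.36. After median-ratio scaling 26 of the 27 lay above all 8 libraries, with Stat2 the exception, as did 89.1% of the 1241 genes. The part of gut region in these differences was not tested further.

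**Figure D4:**
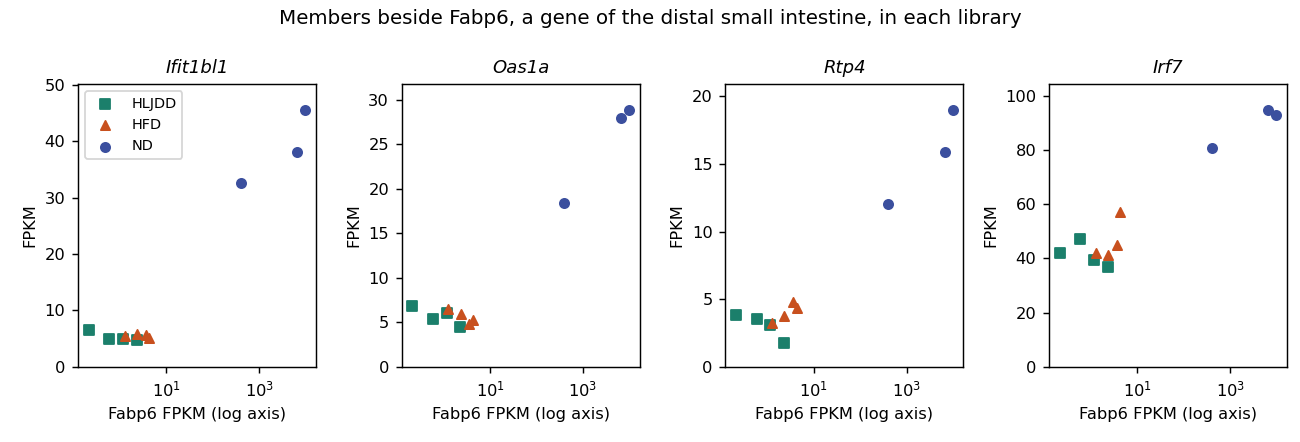
FPKM of 4 members (vertical axes) against FPKM of Fabp6 in the same library (horizontal log axes), with HLJDD as squares, HFD as triangles and ND as circles. The ND library with the least Fabp6 (397 FPKM) has the lowest of the 3 ND values for each of the 4 members and lies above every HLJDD and HFD library.

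Markers of other cells were summed beside the members. The 7 listed genes of plasmacytoid dendritic cells, which make much type I interferon, summed to 27.9 FPKM in HLJDD (15.9 to 33.4), 31.3 FPKM in HFD (18.8 to 48.0) and 8.09 FPKM in ND libraries (6.96 to 8.83). Of the 3 of these genes that were tested, 3 were called higher in HFD and 2 in HLJDD, each against ND. Siglech, a defining marker, was at most 0.24 FPKM in any library, and most of the sum came from Ly6d and Klk1, which other cells also express. B and plasma cell genes summed to 187 FPKM in HLJDD (112 to 297), 216 in HFD (126 to 279) and 48.5 in ND libraries (38.2 to 64.9). Of the 6 tested B and plasma cell genes 0 were called in HLJDD and 1 was called higher in HFD, each against ND. Macrophage and dendritic cell genes summed to 19.5 FPKM in HLJDD (14.1 to 26.8), 23.3 in HFD (15.2 to 31.4) and 14.4 in ND libraries (11.8 to 15.9), which overlap, and 0 of 6 tested were called. T and NK cell genes overlapped too, at 20.5, 31.6 and 25.3 FPKM in HLJDD, HFD and ND libraries. Of 8 tested, 1 was called lower in HLJDD and 0 were called in HFD, each against ND. Adipocyte genes summed to 124 FPKM in HLJDD (110 to 143), 82.1 in HFD (70.8 to 95.7) and 34.4 in ND libraries (24.8 to 42.5), with no overlap, and 5 of 7 were called higher in HLJDD and 1 in HFD against ND. Genes of stroma, muscle and vessels summed to 233 FPKM in HLJDD (154 to 355), 297 in HFD (129 to 482) and 425 in ND libraries (325 to 499), and 0 of 11 were called. All 6 neutrophil genes stayed below 0.5 FPKM in every library, and each was at 0 in at least 1. Against ND, 4.1% of all genes tested were called higher and 7.79% lower in HLJDD, and 5.06% and 11.5% in HFD. The part of the listed cells in the members' levels was not tested.

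Scaling changed which library stood highest. After median-ratio scaling, HFD replicate 1 was the highest HFD library for 25 of 32 members (37.2% of all genes) and HLJDD replicate 2 the highest HLJDD library for 21 of 32 (33.2% of all genes). Without these 2 libraries, 28 members were lower and 1 higher in HFD, and 27 were lower and 0 higher in HLJDD, each against ND. The shares of all genes called in that fit are not given here. Median differences of the members were -1.24 in HFD and -1.23 in HLJDD, beside -0.12 and -0.04 for all genes.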

How the data were processed

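RNA from mouse small intestine was extracted with TRIzol and made into libraries with a VAHTS Universal V6 kit, per the labels' protocols. The submitters' processing notes name fastp, HISAT2, HTSeq, R 3.2.0 and the build mm10. For the annotation, strand setting and other versions, nothing is given in the sources used here. The authors deposited FPKM per gene, and a series table held the same values as the single files (0 differences, 0 unused columns). FPKM are not counts, so no count model was the main test. Low FPKM were whole multiples of 1 read for all 24294 symbols within 0.002 reads (largest distance 0.0017), which gave library totals of 30100481 to 37940645 reads. Replicates differed beyond counting noise (chi-square per degree of freedom 35.9 to 665).

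Genes at 1 FPKM or more in at least 3 libraries (10764) were tested on log2(FPKM + 1) with limma 3.58.1 in R 4.3.3, all 3 groups in 1 fit, with Benjamini-Hochberg adjustment over all tested genes at 0.05. Fold changes on this scale understate changes of low genes. The fit was tested on simulated data. The 3 comparisons share libraries. Per-library values are given for 3 members in each of 8 roles, those with the largest absolute log2 change in HFD against ND. The 4 members with the smallest unadjusted p in HLJDD against HFD, and up to 3 genes per pathway list with the smallest adjusted p in HFD against ND, were also named. Irf1, the interferon receptor chains, Fabp6 and Gata4 were named whatever their values. Some genes that these rules name are not reported here. The members and lists were chosen with earlier results of these data known. Alternatives were other pseudocounts, filters, scalings, limma-voom on the recovered reads, a robust variance estimate, a replicate block, fits of only the groups compared, and leaving out each library or the 2 libraries richest in mitochondrial reads. Shares of all genes called are given for the main fit only and not for the alternatives. Promoters came from RefSeq and exon overlaps from GENCODE M21.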

Additional observations from a re-analysis of the deposited data

Results flagged for a closer look

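Chance alone sets about 1 in 20 groups of 4 libraries apart in this way, and 3 of 64 were set apart here by a wide gap between 1 library and the nearest of the others. Ifit1bl1 was highest in HLJDD replicate 4, at 6.53 FPKM. Ifit3 was lowest in HFD replicate 4, at 1.66 FPKM. Ddx60 was highest in HFD replicate 2, at 2.73 FPKM. Each of these libraries still lay below all ND libraries for that gene.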

How the results depend on the processing

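Of 22 alternatives, a member was tested in 18 to 22, since some filters and left-out ND libraries dropped low members. In those, 21 of the 28 members called in HFD against ND and 25 of the 27 in HLJDD against ND were called every time. Rsad2 and Ifi44, each tested in 18, are counted in both, though they passed the filter only through ND libraries and had to differ. HLJDD against HFD gave 0 called members in all 22 alternatives. The median difference of HFD from ND was -1.47 with a pseudocount of 0.1, -0.98 with a mean of at least 5 FPKM, -1.48 with equal sums, -1.06 with median-ratio scaling and -1.09 with quantile normalization, and -1.39 to -1.09 when 1 library was left out. That of HLJDD from ND was -1.62 with a pseudocount of 0.1, -1.10 with a mean of at least 5 FPKM, -1.51 with equal sums and -1.49 with limma-voom, and -1.32 to -1.13 when 1 library was left out. Of the values followed, 4 genes that missed the threshold changed sign. In HFD against ND, Irf9 became 0.06, 0.01 and 0.04 (median-ratio, quantile, voom), Ifi35 0.09 and 0.08 and Irf1 0.08 and 0.06 (median-ratio, voom), and Ifnar1 -0.10 with equal sums, -0.03 with a replicate block and -0.03 to -0.02 without HFD replicate 3 or 4 or ND replicate 1. In HLJDD against ND, Irf9 became 0.08, 0.04 and 0.05 (median-ratio, quantile, voom) and -0.20 to 0.03 when 1 library was left out, positive without HLJDD replicate 3. Ifnar1 became 0.07, 0.05 and 0.07 under the same scalings, -0.17 to 0.07 when 1 library was left out (0.07 without HLJDD replicate 2), and 0.07 without both mitochondria-rich libraries. The cause was not tested. Same-numbered libraries had correlated deviations of -0.093, 0.0437 and -0.0468 in HFD and ND, -0.027, -0.0126 and -0.219 in HLJDD and ND, and -0.185, 0.16, 0.144 and 0.366 in HLJDD and HFD, not all above 0.1 in any comparison, so the numbers were not taken to pair libraries. Of the 4 numbers in HLJDD and HFD, number 4 correlated best with its own. With the replicate block, 27 members were lower and 0 higher in HFD (Ifi27l2b at an adjusted p of 0.0627), and 26 were lower in HLJDD. The medians were -1.29 in both, where those of all genes were -0.22 in HFD and -0.15 in HLJDD. Between HLJDD and HFD 0 members differed (median -0.08). Leaving out 1 library gave 21 to 28 called members in HFD against ND and 23 to 27 in HLJDD against ND. Depth limits Rsad2, Ifi44, Oas2 and Ifit3b most.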
